A study of Homo sapiens with 18 samples.

Results

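The genes described here are the 9 voltage-gated sodium channel alpha subunit genes SCN1A, SCN2A, SCN3A, SCN4A, SCN7A, SCN8A, SCN9A, SCN10A and SCN11A. They were chosen by gene symbol from the 57905 Ensembl genes counted, without use of a measured value. In the empty vector control cells of the first experiment, SCN9A and SCN8A were the most abundant of them per kilobase of exon. In that experiment SCN1A, SCN7A and SCN9A were called lower in ABCC1-overexpressing cells and no member higher, where 19.7% and 17.9% of all genes tested were. SCN1A and SCN7A lost the call with the background (reads on olfactory receptor genes) as a covariate. SCN7A and SCN9A lost it with a spread shared across all 18 libraries. None of these differences was called in the other experiments, and for SCN9A the difference between experiments was itself called, a call lost in 7 of the 18 fits that left out 1 library and with the background as a covariate.

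A sodium channel alpha subunit is a single large membrane protein that forms the pore and the voltage sensors, and it opens within a fraction of a millisecond of depolarization to carry the upstroke of the action potential. Beta subunits, fibroblast growth factor homologous factors and ankyrins bind it and set where it sits and how it inactivates. SCN1A, SCN2A, SCN3A and SCN8A encode the channels of the central nervous system, SCN9A that of sympathetic and sensory neurons, and SCN4A that of skeletal muscle. SCN10A and SCN11A encode the channels of pain-sensing neurons that still conduct in tetrodotoxin, the pufferfish toxin that plugs the pore, and SCN7A encodes an atypical member known as a sensor of the sodium concentration.

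BE(2)-m17 is a human neuroblastoma line, a tumour line of the sympathetic nervous system. Every library came from BE(2)-m17 cells that carried the vector pSBbi-Hyg-APP, which expresses the amyloid precursor protein. The ABCC1-overexpressing cells carried in addition a codon-optimized ABCC1, an export pump, in the vector pSBbi-Pur, and the empty vector control cells (Puro) carried that vector without an insert. Both vectors were inserted by Sleeping Beauty transposition, so each line is a selected pool of cells. Each of 3 experiments (RNA1, RNA2 and RNA3) held 3 libraries of each line, 18 in all, from cells lysed on the fourth day after plating. The labels only number the experiments, and the paper's order makes RNA2 the cryopreserved cells and RNA3 the newly transfected cells. For RNA1 the labels name both an mRNA kit and a total RNA kit, and the paper names the mRNA kit (TruSeq), while RNA2 and RNA3 were made with a total RNA kit (SMARTer Pico). Kit, instrument and cells changed together between RNA1 and the others and cannot be told apart, so the lines were compared within an experiment.

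Between 27433393 and 57937653 read pairs were assigned per library in RNA1, between 19577853 and 30996228 in RNA2 and between 8866994 and 13332413 in RNA3. The vector-borne ABCC1 had between 51035 and 594404 counts in the libraries labelled ABCC1 and at most 15 in the empty vector controls. Of 9 adrenergic neuroblastoma markers, 8 lay above 1 CPM (counts scaled to a common library size) per kilobase of exon in every RNA1 library. Reads on 372 olfactory receptor genes, which these cells are taken not to use, served as the background. They lay at 0.0038 to 0.0053 CPM per kilobase in RNA1, at 0.145 to 0.667 in RNA2 and at 1.14 to 1.65 in RNA3. Within RNA2 this background was higher in the empty vector control cells (0.582 ± 0.089, SD, n = 3) than in the ABCC1-overexpressing cells (0.305 ± 0.146), and within RNA3 as well (1.58 ± 0.095 against 1.25 ± 0.156), without overlap in either. In RNA1 it was higher in the controls too (0.00490 ± 0.00041 against 0.00407 ± 0.00029), also without overlap.

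The pore loop of the first repeat is a stretch of coding sequence that differs between these genes, and the codon at one position there is known to set tetrodotoxin sensitivity. It is shown for 8 of the 9 genes, without SCN1A, which shares 41 of the 45 bases with SCN2A. In each the 45 bases lie in a single coding exon, read from GENCODE v29 transcripts on GRCh38, and the capitals mark that codon.
SCN2A: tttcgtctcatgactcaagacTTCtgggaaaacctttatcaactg
SCN3A: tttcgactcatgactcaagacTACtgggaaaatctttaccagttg
SCN8A: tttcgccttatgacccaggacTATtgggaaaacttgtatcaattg
SCN9A: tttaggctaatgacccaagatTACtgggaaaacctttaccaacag
SCN4A: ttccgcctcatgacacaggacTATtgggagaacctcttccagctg
SCN7A: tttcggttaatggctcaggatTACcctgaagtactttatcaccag
SCN10A: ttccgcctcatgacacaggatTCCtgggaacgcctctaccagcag
SCN11A: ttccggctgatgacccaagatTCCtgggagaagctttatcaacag
The stretches lie at chr2:165313717-165313761 (SCN2A, plus strand), chr2:165155762-165155806 (SCN3A, minus), chr12:51702870-51702914 (SCN8A, plus) and chr2:166293231-166293275 (SCN9A, minus). The others lie at chr17:63966102-63966146 (SCN4A, minus), chr2:166462389-166462433 (SCN7A, minus), chr3:38757018-38757062 (SCN10A, minus) and chr3:38910066-38910110 (SCN11A, minus). The marked codon is for an aromatic residue in 6 of these genes and for serine in SCN10A and SCN11A. SCN4A and SCN7A share 25 of the 45 bases, the fewest of any pair. Read pairs that fitted several members equally well were not counted, and their number is not in the counts.

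In RNA1 the members spanned the widest range of levels of the 3 experiments, and the order in the empty vector control cells was clear. SCN9A came first at 5.76 ± 0.19 CPM per kilobase of exon (SD, n = 3), and SCN8A second at 3.65 ± 0.20. SCN3A followed at 1.15 ± 0.07, SCN7A at 0.730 ± 0.075, SCN2A at 0.411 ± 0.027 and SCN1A at 0.275 ± 0.022. SCN11A lay at 0.091 ± 0.033, SCN4A at 0.023 ± 0.013 and SCN10A at 0.001 ± 0.002. The ranges of neighbours in this order did not overlap. SCN9A, the sympathetic and sensory channel, made up 47.7% ± 1.44 of the summed level of the 9 genes and SCN8A 30.2% ± 1.19. In ABCC1-overexpressing cells the shares were 39.0% ± 0.215 and 37.0% ± 1.16, and the SCN9A range (3.73 to 4.08 CPM per kilobase) overlapped that of SCN8A (3.66 to 3.75).

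**Figure D1:**
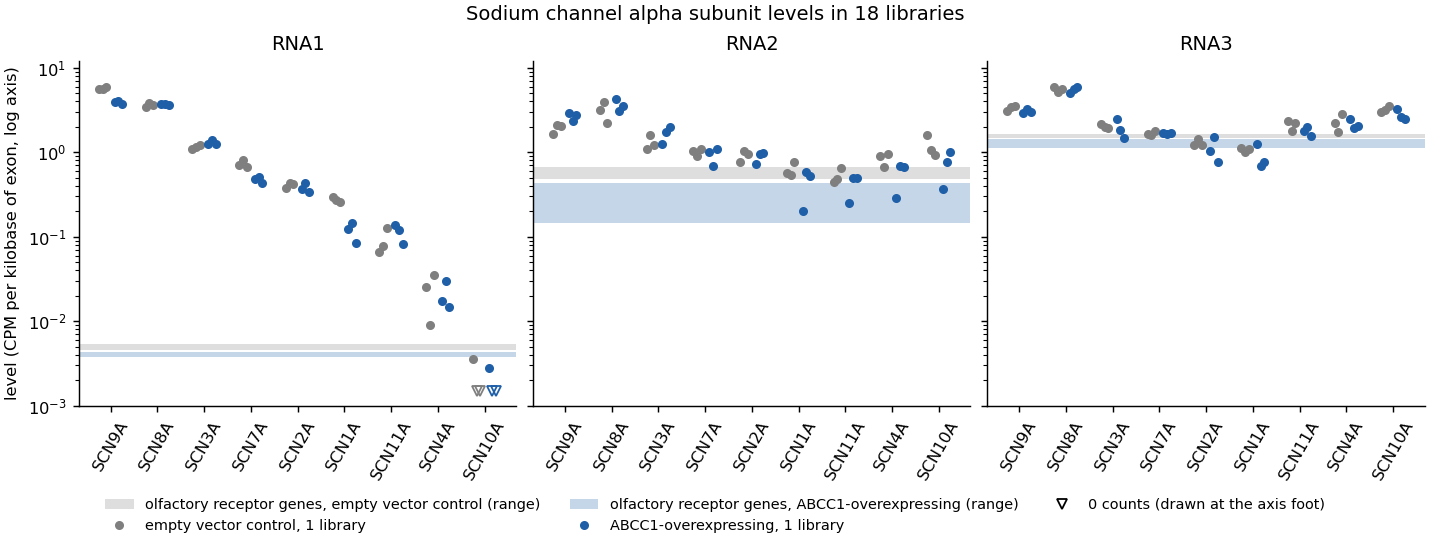
Level of each gene in CPM per kilobase of exon (log axis) in every library of RNA1, RNA2 and RNA3, 3 points for each line, with shaded bands for the range of the olfactory receptor background in each line. In RNA1 the levels fall from SCN9A to SCN10A over several orders of magnitude, and in RNA2 and RNA3 the lower members sit at the bands.

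The muscle channel SCN4A had 9, 2 and 9 counts in the RNA1 empty vector control libraries and 8, 8 and 7 in the ABCC1-overexpressing ones. SCN10A had 1, 0 and 0 counts in each line, under a floor of 3 counts, so no fold is given. Both fell below the count filter of the test. The other tetrodotoxin-resistant member, SCN11A, had 22, 16 and 31 counts against 59, 30 and 36. These 3 genes were thus measured thinly, while SCN9A and SCN8A had at least 1300 counts in each RNA1 library.

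One limit concerns SCN8A. An unnamed gene on the same strand (ENSG00000260415) covers 2848 of its 12457 exon bases (22.9%), another (ENSG00000260122) covers 896 on the opposite strand, and both have 0 counts in all 18 libraries. Pairs on bases shared by several genes are not counted for any of them, so the SCN8A level is an underestimate. With the shared bases left out of its length, SCN8A stood at 5.21 ± 0.29 CPM per kilobase in the RNA1 empty vector control cells, still below SCN9A at 6.06 ± 0.20 computed the same way. In the ABCC1-overexpressing cells the order of the pair turned, with SCN8A at 5.29 ± 0.07 and SCN9A at 4.11 ± 0.18. SCN1A and SCN9A share 436 and 511 exon bases with the antisense gene SCN1A-AS1, which had 1 to 5 counts per RNA1 library. The counts do not use strand, so sense and antisense reads cannot be told apart.

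The RefSeq promoters (GRCh38.p14) of the 2 members with the highest levels in RNA1 and of SCN10A, the one with the lowest there, show what precedes their starts. Each line gives the 250 bases before the start, with each GC box (GGGCGG, searched on both strands with overlapping matches counted, so CCGCCC too) in capitals.
SCN9A: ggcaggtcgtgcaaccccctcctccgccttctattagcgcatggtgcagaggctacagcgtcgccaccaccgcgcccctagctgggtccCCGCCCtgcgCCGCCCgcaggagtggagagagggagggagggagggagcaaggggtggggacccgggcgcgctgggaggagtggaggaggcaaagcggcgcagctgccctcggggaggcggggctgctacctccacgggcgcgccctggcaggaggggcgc
SCN8A: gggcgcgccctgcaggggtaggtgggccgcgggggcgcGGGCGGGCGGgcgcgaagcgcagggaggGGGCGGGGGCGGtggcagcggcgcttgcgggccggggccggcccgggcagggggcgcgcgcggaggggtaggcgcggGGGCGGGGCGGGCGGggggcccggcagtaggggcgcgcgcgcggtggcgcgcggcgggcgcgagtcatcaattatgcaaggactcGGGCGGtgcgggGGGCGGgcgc
SCN10A: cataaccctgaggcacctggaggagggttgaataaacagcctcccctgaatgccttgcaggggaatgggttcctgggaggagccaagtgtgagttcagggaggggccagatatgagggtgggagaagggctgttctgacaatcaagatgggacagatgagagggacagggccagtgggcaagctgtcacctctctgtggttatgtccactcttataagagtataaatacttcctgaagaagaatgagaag
They lie at chr2:166375945-166376194 (minus strand), chr12:51590983-51591232 (plus) and chr3:38794011-38794260 (minus). The SCN8A window is 85.6% G and C with 45 CpG pairs and 9 GC boxes, and the SCN10A window 52.0% with 0 of either. The SCN9A window holds 22 CpG pairs and 2 GC boxes. A GC box occurs in 42.6% of the 35116 promoters of the table, whose median is 58.0% G and C. SCN11A, at a low level in RNA1, has one of its 2 listed promoters at 67.6% with 21 CpG pairs and 2 GC boxes, so the description does not order the members by level. Promoters of 7 members are in the table.

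Whether ABCC1 overexpression went with other levels of these channels was asked first in RNA1. Of the 9 genes, 7 passed the count filter, 3 of them were called lower with ABCC1 and 0 higher at an adjusted p of at most 0.05 (edgeR quasi-likelihood test). In the same fit 19.7% of the 16995 genes tested were called lower, 17.9% higher and 37.6% in either direction, so calls were common among all genes. The median log2FC of the 7 was -0.13, against 0.01 for all genes tested. At an unadjusted p under 0.05 there were 4 members and 46.6% of genes. An adjusted p of at most 0.001 together with a log2FC of 1.5 or more in size, which the study used to pick out genes of interest, was reached by no member and by 2.11% of genes.

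SCN9A, the most abundant member, had a level of 5.67, 5.64 and 5.98 CPM per kilobase in the empty vector control libraries and 3.92, 4.08 and 3.73 in the ABCC1-overexpressing libraries. The groups did not overlap, as for 50.4% of all genes tested. The log2FC was -0.56 ± 0.05 (SE, edgeR adjusted p = 1.38e-05), on 1352 to 2535 counts per library.

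SCN1A, the channel of inhibitory interneurons, had the largest difference among the members. Its level was 0.299, 0.272 and 0.256 CPM per kilobase in the empty vector control libraries and 0.123, 0.146 and 0.085 in the ABCC1-overexpressing libraries. All 3 ABCC1 libraries lay below the controls, with a log2FC of -1.28 ± 0.19 (SE, edgeR adjusted p = 3.75e-04). It rests on 42 to 116 counts per library.

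SCN7A, the sodium sensor, had a level of 0.708, 0.814 and 0.668 CPM per kilobase in the empty vector control libraries. It had 0.477, 0.508 and 0.437 in the ABCC1-overexpressing libraries, again without overlap. The log2FC was -0.63 ± 0.11 (SE, edgeR adjusted p = 9.93e-04).

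**Figure D2:**
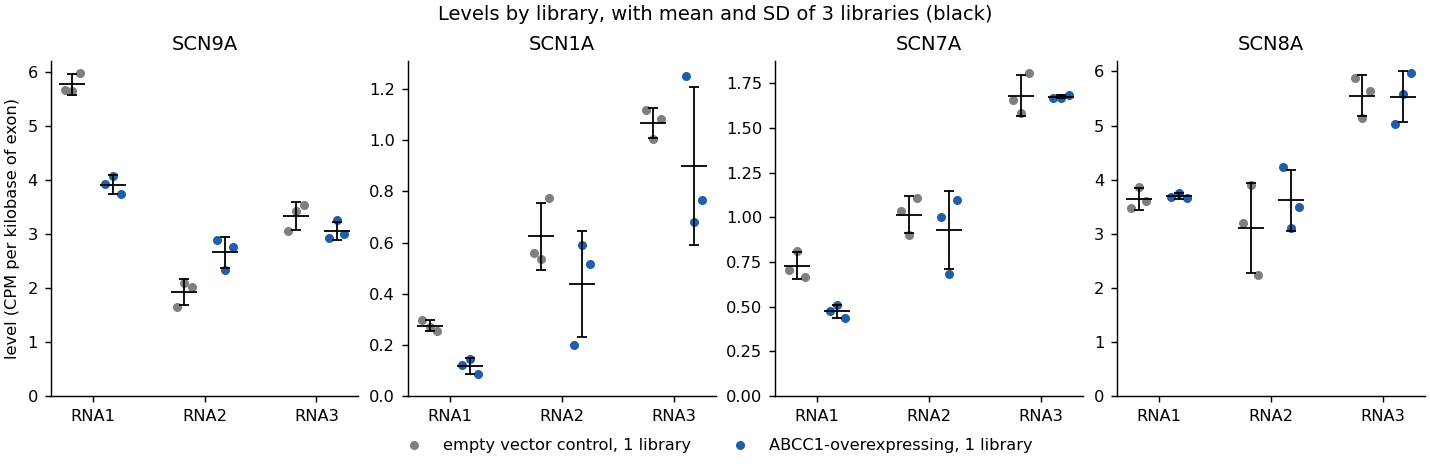
Level in CPM per kilobase of exon (axis from 0) of SCN9A, SCN1A, SCN7A and SCN8A in each library, with the mean and SD of 3 libraries in black. SCN9A, SCN1A and SCN7A are lower in the ABCC1-overexpressing cells of RNA1, SCN9A is higher in those of RNA2, and SCN8A overlaps in each experiment.

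The other tested members were not called in RNA1. SCN8A, the channel of nodes of Ranvier and axon initial segments, differed by a log2FC of 0.02 ± 0.05 (adjusted p = 0.772), with 3.47 to 3.87 CPM per kilobase in control and 3.66 to 3.75 in ABCC1-overexpressing libraries. SCN2A, the channel of excitatory neurons, gave -0.13 ± 0.11 (adjusted p = 0.396) and SCN11A 0.33 ± 0.29 (adjusted p = 0.409), both with overlapping groups. SCN3A, known for its high level before birth, gave 0.17 ± 0.08 (adjusted p = 0.103). Its 3 ABCC1 libraries (1.25, 1.41 and 1.25 CPM per kilobase) lay above its 3 controls (1.08, 1.16 and 1.22), and without RNA1 ABCC1 replicate 3 it was called (0.20, adjusted p = 0.0387). Without that library 46.3% of all genes tested were called, against 37.6% with it.

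SCN1A and SCN7A lost their calls with the background as a covariate, with a log2FC of -1.27 (adjusted p = 0.0537) and -0.47 (adjusted p = 0.177). In that fit 8.66% of all genes tested were called, against 37.6% without the covariate. The RNA1 background was 0.00490 ± 0.00041 CPM per kilobase in control and 0.00407 ± 0.00029 in ABCC1-overexpressing cells. These groups did not overlap, on 49 to 99 counts per library. The covariate thus went with the line, which weakens any test of the line in that fit. SCN7A and SCN9A lost their calls with a spread shared across all 18 libraries, with a log2FC of -0.52 (adjusted p = 0.166) and -0.46 (adjusted p = 0.0586). With that spread 3.31% of all genes were called. In RNA1 the summed level of 5 fibroblast markers, mostly LUM and DCN, was 32.4 to 33.4 CPM per kilobase in control and 45.5 to 46.4 in ABCC1-overexpressing libraries, while COL1A2 had at most 1 count. The sum of 5 sensory neuron markers was 8.55 to 9.11 against 10.5 to 11.6, that of 7 skeletal muscle markers 0.323 to 0.508 against 0.562 to 0.720, and that of the adrenergic markers 4091 to 4461 against 3589 to 4179. The glial sum was 1.58 to 1.95 against 1.56 to 1.64, and SOX10 had at most 1 count. Of these lists no gene was without a count in all RNA1 libraries, and their part in the results was not tested. In bulk samples fewer cells that express a channel and less RNA per cell cannot be told apart.

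**Figure D3:**
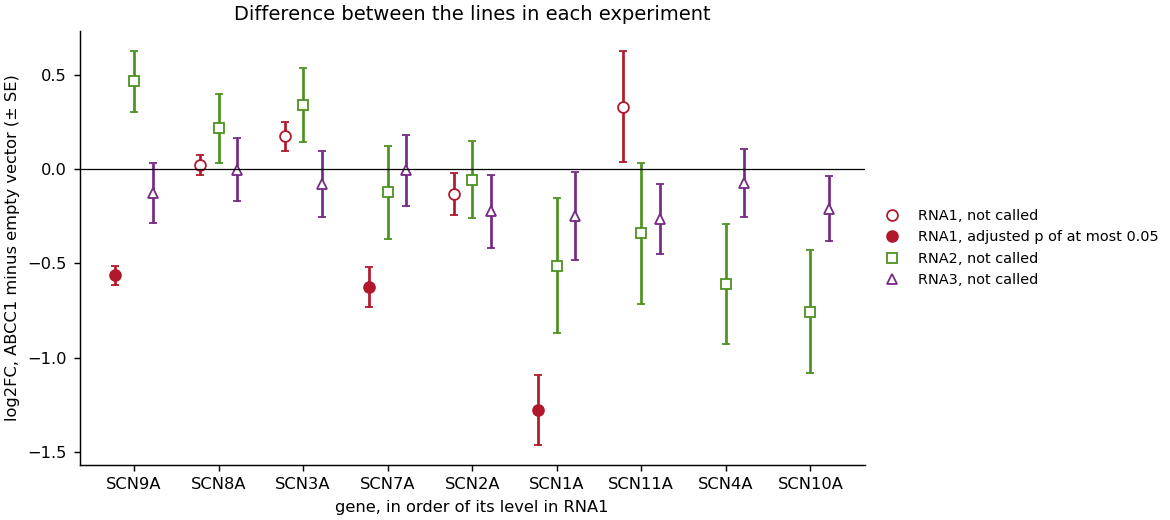
Log2FC of ABCC1-overexpressing against empty vector control cells with its SE for each gene that passed the count filter, in RNA1 (circles), RNA2 (squares) and RNA3 (triangles), filled where called. The filled points are SCN9A, SCN7A and SCN1A in RNA1, all below 0.

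Of the 9 genes, 5 stand together on chromosome 2 (GRCh37). SCN3A (165944032 to 166060577) and SCN2A (166095912 to 166248818) lie at one end, and SCN1A (166845670 to 166984523), SCN9A (167051695 to 167232503) and SCN7A (167260083 to 167350757) at the other. The 3 members called in RNA1 are these last 3, neighbours among the tested genes and all on the minus strand. This was noticed after their values were seen. The 1.41 Mb from SCN3A to SCN7A hold 19 annotated genes, 8 of which were tested in RNA1. The 3 that are not sodium channel genes lie between SCN2A and SCN1A, and none of them was called. Their log2FC was -0.01 ± 0.04 for CSRNP3, 0.12 ± 0.21 for GALNT3 and 0.07 ± 0.05 for TTC21B. SCN10A and SCN11A stand together on chromosome 3, SCN8A is on chromosome 12 and SCN4A on chromosome 17.

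**Figure D4:**
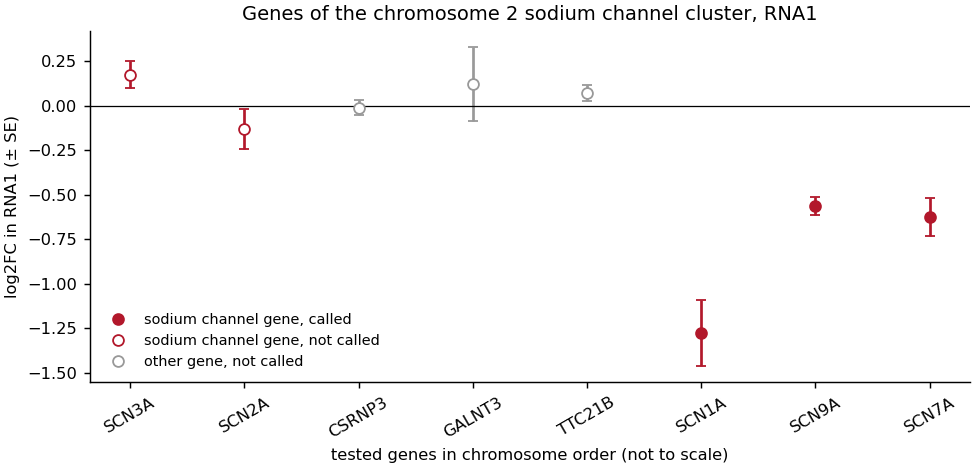
Log2FC with its SE in RNA1 for the 8 tested genes from SCN3A to SCN7A on chromosome 2, in chromosome order and not to scale, filled where called. SCN1A, SCN9A and SCN7A at the right are below 0, and the 5 genes to their left lie between -0.13 and 0.17.

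In the total RNA libraries the levels of the lower members lay close to the background, and the order of the members changed. SCN10A had 123 to 233 counts in the RNA2 control libraries, 61 to 197 in the RNA2 ABCC1 libraries and 190 to 246 over RNA3, against 2 counts in all of RNA1. Its level was 1.58 to 2.53 times that of the olfactory receptor genes of the same library in RNA2 and 1.84 to 2.31 times in RNA3. Over the 12 libraries of RNA2 and RNA3 the Pearson r of log2 level with log2 background was 0.987 for SCN10A, 0.976 for SCN4A, 0.947 for SCN11A and 0.923 for SCN1A. It was 0.833 for SCN7A, 0.633 for SCN2A, 0.596 for SCN8A, 0.569 for SCN3A and 0.445 for SCN9A. These r are a description: the libraries fall into 2 experiments that differ in background, and SCN9A gave -0.799 within RNA2 and 0.369 within RNA3, and SCN8A -0.609 and -0.208. SCN10A gave 0.953 and 0.873 there, SCN4A 0.965 and 0.491, SCN1A 0.899 and 0.833 and SCN11A 0.849 and 0.738. SCN7A gave 0.210 and 0.219, SCN2A 0.468 and 0.337 and SCN3A -0.053 and 0.649.

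**Figure D5:**
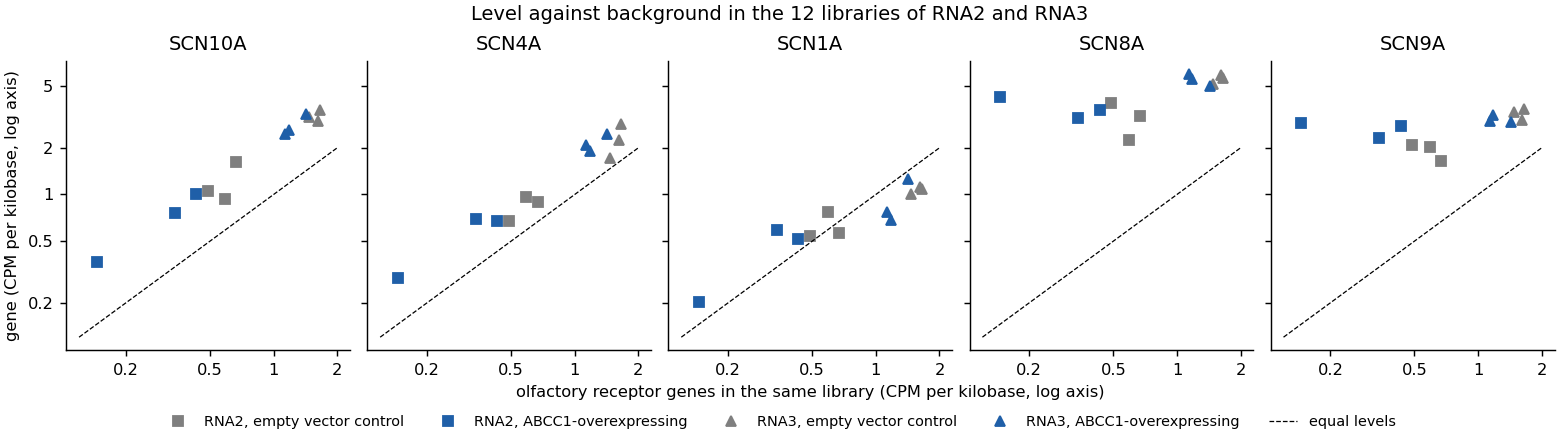
Level of 5 genes against the olfactory receptor background of the same library (both in CPM per kilobase, log axes) in the 6 libraries of RNA2 (squares) and the 6 of RNA3 (triangles), with a dashed line at equal levels. SCN10A, SCN4A and SCN1A rise with the background, SCN10A at 1.58 to 2.53 times it, while SCN8A and SCN9A reach 29.2 and 19.9 times it in RNA2.

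SCN8A was the highest member in RNA2 and RNA3 and SCN9A lay below it, the opposite of their order in the RNA1 controls. In the RNA2 controls SCN8A stood at 3.11 ± 0.83 CPM per kilobase and SCN9A at 1.93 ± 0.24, and in the RNA3 controls at 5.55 ± 0.38 and 3.34 ± 0.26. Relative to the background SCN8A was 3.77 to 29.2 times as high in RNA2 and SCN9A 2.48 to 19.9 times, and in RNA3 3.41 to 5.26 and 1.88 to 2.75 times. SCN3A was above the background in all libraries of both experiments, at 1.65 to 8.57 times in RNA2 and 1.17 to 1.72 times in RNA3. SCN1A was below it in all 6 RNA3 libraries (0.577 to 0.877 times), and SCN2A was below it in 5 of them (0.675 to 1.27 times over the 6). Among the RNA2 controls the ranges of neighbours overlapped for every member below SCN3A in the order, SCN3A and SCN10A included.

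In RNA2 all 9 genes passed the filter and 0 were called (edgeR, and also DESeq2 and limma-voom), where 1.70% of 34091 genes were called (1.25% higher and 0.458% lower with ABCC1), and 2 members had an unadjusted p under 0.05, as did 21.3% of genes. The 2 were SCN9A and SCN10A, with opposite signs, and both were called with a spread shared across all 18 libraries (adjusted p = 0.0276 and 0.0462). That setting called 10.6% of 46225 genes. SCN9A was at 1.66, 2.10 and 2.02 CPM per kilobase in the control libraries and at 2.89, 2.33 and 2.76 in the ABCC1-overexpressing libraries. The groups did not overlap, as for 29.8% of genes, and the log2FC was 0.47 ± 0.16 (SE, edgeR adjusted p = 0.113). The summed level of the adrenergic markers was also higher with ABCC1 in RNA2 (2402 to 2976 CPM per kilobase in control and 3100 to 3400 in ABCC1-overexpressing libraries). The sensory neuron sum was 8.82 to 12.4 against 8.35 to 9.52, the fibroblast sum 12.2 to 24.4 against 16.4 to 17.7, the muscle sum 4.91 to 9.71 against 3.24 to 6.13 and the glial sum 3.61 to 6.16 against 2.44 to 4.78. Their part in the result was not tested. The median log2FC of all genes tested was -0.19 in this fit and -0.08 with RLE size factors.

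SCN10A was at 1.62, 1.05 and 0.933 CPM per kilobase in the RNA2 controls and at 0.367, 0.765 and 1.00 in the ABCC1-overexpressing libraries, which overlap. Its log2FC was -0.76 ± 0.33 (SE, edgeR adjusted p = 0.187), next to a log2 ratio of -0.93 for the background itself. The lowest SCN10A level and the lowest background, 0.145 CPM per kilobase, were in the same library, ABCC1 replicate 1. SCN4A and SCN1A, also lowest in that library, gave -0.61 ± 0.32 (adjusted p = 0.270) and -0.51 ± 0.36 (adjusted p = 0.407). Without that library the 3 genes gave -0.43, -0.29 and -0.16. With the background as a covariate their log2FC turned to 0.13, 0.20 and 0.34. SCN3A was at 0.34 ± 0.20 (adjusted p = 0.315), SCN8A at 0.22 ± 0.18 (adjusted p = 0.502) and SCN2A at -0.06 ± 0.20 (adjusted p = 0.894). SCN7A gave -0.12 ± 0.24 and SCN11A -0.34 ± 0.37 (adjusted p = 0.792 and 0.613). SCN11A too was lowest in ABCC1 replicate 1, gave -0.07 without that library and turned to 0.25 with the covariate.

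Divided by the background of the same library, SCN9A was 2.48 to 4.29 in the RNA2 controls and 6.41 to 19.9 in the ABCC1-overexpressing cells. The difference of the mean log2 ratios was 1.53, and the exact two-sided permutation test gave p = 0.1, the smallest that 3 against 3 libraries allow. The ratio was higher with ABCC1 for all 9 members in RNA2, by 0.22 (SCN10A) to 1.53, and SCN2A, SCN3A, SCN7A, SCN8A and SCN11A had the same exact permutation p of 0.1. The background itself, by which all are divided, had a log2 ratio of -0.93. In RNA1 the same ratio differed by -0.29 (exact permutation p = 0.2) and in RNA3 by 0.22 (exact permutation p = 0.3).

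In RNA3 all 9 genes passed the filter and 0 were called by edgeR, DESeq2 or limma-voom, where edgeR called 2.80% of 36509 genes (2.03% higher and 0.767% lower). No member had an unadjusted p under 0.05, as 15.2% of genes did. The log2FC of all 9 lay between -0.26 and -0.0038, with a median of -0.13 against -0.09 for all genes tested. The background had a log2 ratio of -0.34, and divided by it all 9 members were higher with ABCC1, by 0.05 to 0.34 on the log2 scale (exact permutation p = 0.1 to 1.0). SCN9A was at 3.05, 3.42 and 3.54 CPM per kilobase in the controls and at 2.93, 3.25 and 2.99 in the ABCC1-overexpressing libraries, with a log2FC of -0.13 ± 0.16 (adjusted p = 0.771). SCN1A was at 1.12, 1.00 and 1.08 against 1.25, 0.682 and 0.766, with a log2FC of -0.25 ± 0.23 (adjusted p = 0.671). SCN7A, at 1.58 to 1.80 against 1.67 to 1.68 CPM per kilobase, gave -0.01 ± 0.19 (adjusted p = 0.994). Its level was only 1.02 to 1.48 times the background in RNA3, which limits what can be measured of it there. For each of the 9 genes the groups overlapped, where 19.5% of all genes tested did not.

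A fit of all 18 libraries asked which effects were common to the experiments and which differed between them. Only SCN1A was called for a common effect, with a log2FC of -0.59 ± 0.18 (SE, edgeR adjusted p = 0.0214), where 12.5% of 46225 genes were called. The median log2FC of all genes in that fit was -0.16, and -0.26 with DESeq2. Its call was lost without RNA1 Puro replicate 1, RNA1 ABCC1 replicate 3 or RNA2 Puro replicate 3 (adjusted p = 0.0517, 0.0648 and 0.0569). With the background as a covariate it was -0.26 (adjusted p = 0.606).

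Only SCN9A was called for a difference between experiments (adjusted p = 0.0161 for the interaction), as were 1.19% of genes. Its log2FC was higher by 0.94 in RNA2 than in RNA1 and by 0.42 in RNA3 than in RNA1, and RNA3 and RNA2 differed by -0.53 (adjusted p = 0.512), a difference called for 0.0238% of genes. The call held in 11 of the 18 fits that left out 1 library, with an adjusted p between 0.00527 and 0.0740. It was lost without RNA1 Puro replicate 1 or 3, any 1 RNA1 ABCC1 library, RNA2 Puro replicate 1 or RNA2 ABCC1 replicate 1. With the background as a covariate the adjusted p was 0.109, and the log2FC was higher than in RNA1 by 0.80 in RNA2 and by 0.40 in RNA3. For SCN1A and SCN7A, called in RNA1 alone, the difference between experiments was not called (adjusted p = 0.602 and 0.666), so their effects are not shown to differ.

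The genes that work with these channels were followed through a list of 32 partners. In RNA1, 28 were tested, 15 were called lower with ABCC1 and 3 higher, where 19.7% and 17.9% of all genes tested were, and their median log2FC was -0.17 against 0.01. With the background as a covariate 9 partners and 8.66% of all genes were called in RNA1, and with a shared spread 3 partners and 3.31% of all genes. In RNA2 and RNA3 edgeR called 0 of the 32, with 15 and 3 at an unadjusted p under 0.05 (21.3% and 15.2% of all genes), while DESeq2 called 5 and 1 (7.5% and 4.28% of all genes) and limma-voom 2 and 0 (3.82% and 2.82%).

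Of the 4 beta subunits, which modulate gating and adhere to neighbouring cells, SCN3B was by far the highest. It fell in RNA1 from 37.0 ± 0.43 to 25.3 ± 0.40 CPM per kilobase (SD, n = 3), a log2FC of -0.55 ± 0.04 (SE, edgeR adjusted p = 1.57e-06). In RNA2 it gave 0.03 and in RNA3 -0.22 (adjusted p = 0.940 and 0.629). SCN2B lay at 0.048 ± 0.023 and 0.048 ± 0.012 in RNA1 and was not called, and SCN4B at 0.018 and 0.004 was not tested. In RNA2 SCN2B gave -1.22 (adjusted p = 0.0598) and SCN4B -1.42 (adjusted p = 0.147), from 1.08 and 0.720 CPM per kilobase in controls whose background was 0.582.

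Among the anchors, 5 of 6 fell in RNA1, where 19.7% of all genes tested did. ANK3, the ankyrin that holds channels at the axon initial segment, gave a log2FC of -0.58, NFASC, an adhesion protein there, -0.41, and CNTN1, a contactin that binds the channel complex, -0.40. ANK2 gave -0.27 and SPTBN4, the spectrin beneath them, -0.17, and CNTNAP1 was not called (-0.13, adjusted p = 0.116). FGF13, a homologous factor that modulates inactivation, fell by 1.19 on the log2 scale, and FGF14 did not pass (0.04, adjusted p = 0.683). In RNA2 and RNA3, with none called, ANK3 gave -0.53 and -0.15, NFASC 0.22 and -0.16, CNTN1 0.02 and -0.28, ANK2 0.20 and -0.13, SPTBN4 -0.02 and -0.07 and FGF13 -1.66 and -0.21. ANK3 and FGF13 lay near the background in the RNA2 controls, at 0.711 and 0.776 CPM per kilobase against 0.582. In the RNA3 controls they were at 1.46 and 1.35 against 1.58.

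S100A10, an adaptor known to carry the SCN10A channel to the membrane, rose from 2.59 ± 0.20 to 7.37 ± 0.31 CPM per kilobase in RNA1 (log2FC 1.52, edgeR adjusted p = 5.34e-07). NEDD4, a ubiquitin ligase, fell by 0.48, and DPYSL2, a cytoplasmic regulator of SCN9A trafficking, fell by 0.28. REST, the repressor of neuronal genes, rose by a log2FC of 0.51 from 1.34 ± 0.04 to 1.89 ± 0.03 CPM per kilobase, and its cofactor RCOR1 fell by 0.13. Of the splicing factors, RBFOX3 fell by 1.41, RBFOX1 by 0.52 and NOVA2 by 0.23, and RBFOX2 rose by 0.18. None of these was called in RNA2 or RNA3, where S100A10 gave 0.17 and -0.02, REST 0.77 and 0.25, RCOR1 0.36 and 0.17, NOVA2 0.44 and 0.05 and RBFOX3 -0.73 and -0.10. NEDD4 gave 0.0042 and -0.18 there and DPYSL2 0.20 and -0.21, RBFOX1 gave -0.81 and -0.17 and RBFOX2 0.38 and 0.06. REST, RBFOX1 and RBFOX3 lay near the background in the RNA2 controls, at 0.800, 0.855 and 0.879 CPM per kilobase against 0.582. In the RNA3 controls they were at 1.22, 2.27 and 2.33 against 1.58.

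NALCN, the sodium leak channel of resting neurons and a relative of the alpha subunits, had the largest difference of the list. It fell from 0.412 ± 0.036 to 0.084 ± 0.012 CPM per kilobase in RNA1, a log2FC of -2.31 ± 0.15 (SE, edgeR adjusted p = 1.36e-06), and gave -0.74 in RNA2 and -0.26 in RNA3 (adjusted p = 0.156 and 0.535). In the RNA2 and RNA3 controls NALCN lay near the background, at 0.847 and 2.15 CPM per kilobase against 0.582 and 1.58. The background itself had log2 ratios of -0.93 and -0.34 there. ATP1B1, a subunit of the sodium pump, fell by 0.33 in RNA1 and gave 0.11 and -0.22 in RNA2 and RNA3. NALCN and S100A10 were the 2 partners with an adjusted p of at most 0.001 and a log2FC of 1.5 or more in size.

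Across the 18 libraries, with each experiment centred on its own mean, the genes whose log2 CPM followed a member most closely were named among 14773 genes with at least 10 counts in every library. SCN4A and SCN10A, with fewer counts in RNA1, were not compared. For SCN1A they were GRM8, a metabotropic glutamate receptor (Pearson r = 0.94), and BMP4, a bone morphogenetic protein (0.92). For SCN9A they were RABGAP1L (0.88) and GDAP2 (0.86), and for SCN8A ENSG00000260597 (0.90) and HOXC6, a homeobox gene (0.88). For SCN7A they were MIR218-2 and FAM218A (both 0.86), for SCN3A TRIP10 (0.86) and ENSG00000215933 (0.85), for SCN2A NUP35 (0.80) and RAB9B (0.79), and for SCN11A PCDH7 (0.84) and GRAP2 (0.80). Among the members themselves the highest r was 0.52, for SCN7A with SCN9A and with SCN1A. The points share line, depth and background, so the r describe these libraries.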

How the data were processed

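RNA from 18 BE(2)-m17 libraries was sequenced. The authors demultiplexed the reads with bcl2fastq 2.18, aligned them with STAR 2.7.3a and assigned read pairs to GRCh37 exons by featureCounts (Subread 2.0.0), and deposited the resulting counts per gene without normalization. Strand, multiply mapped pairs and pairs on several genes were not used. Groups came from the labels. The 92 spike-ins and 6 vector sequences, up to 9.84e-05% and 1.32% of a library's counts, were left out.

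Symbols were matched for 51996 of 57905 genes. The fits used edgeR 4.0.16 under R 4.3.3 (filterByExpr at a minimum count of 10, TMM, robust quasi-likelihood, Benjamini-Hochberg over all genes tested, two-sided), each experiment alone and all 18 libraries jointly. Levels are TMM-scaled CPM per kilobase of exon. The floor is 3 counts per library, and floors cover counting error only. Libraries of a group differed beyond sampling noise (chi-square of 1.53 to 25.8 per degree of freedom), and per the paper 1 well of each line was plated a week, so p-values measure the spread between platings of a selected pool.

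Alternatives were DESeq2 1.42.0, limma-voom (limma 3.58.1), RLE size factors, other count filters, a replicate block, a shared spread, the background as a covariate and each library left out. The joint fits without each library and with the covariate, and the level without shared exon bases, were added after the data were seen. The named genes were all members, the beta subunits, each partner called in any experiment and the 2 genes most correlated with each member. The members and lists were chosen with earlier results of these data known. Some items under these rules are not reported here. Scripts were tested on simulated data.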

Additional observations from a re-analysis of the deposited data

Results flagged for a closer look

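The effect of ABCC1 on SCN9A differed between the experiments (interaction in the joint edgeR fit of 18 libraries, adjusted p = 0.0161), as was called for 1.19% of genes. The log2FC was -0.56 ± 0.05 in RNA1, 0.47 ± 0.16 in RNA2 and -0.13 ± 0.16 in RNA3 (SE). Every ABCC1 library lay below every control library in RNA1 and above in RNA2, where the groups did not overlap for 50.4% and 29.8% of all genes tested. The adjusted p ranged from 0.00527 to 0.0740 over the 18 fits that left out 1 library and was 0.109 with the background as a covariate, where the log2FC was higher than in RNA1 by 0.80 in RNA2, against 0.94 without it. Kit, instrument and cells changed together between RNA1 and the other experiments and cannot be told apart there. RNA2 and RNA3 share kit and instrument, and between them the SCN9A difference was not called (edgeR adjusted p = 0.512).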

How the results depend on the processing

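Of 548 values of single members under the alternatives, 485 kept their direction and their side of the threshold, 8 lost a call, 3 gained one and 52 changed sign. The cause of these changes was not tested.

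With the background as a covariate 1 member and 9 partner genes were called in RNA1, where 3 and 18 had been, and with a spread shared across 18 libraries 1 and 3. Of all genes these settings called 8.66% and 3.31%, where 37.6% had been. The shared spread called 2 members and 11 partners in RNA2 and 1 partner in RNA3, where none had been. It called 10.6% and 3.09% of all genes there, where 1.70% and 2.80% had been. Partners called in RNA2 numbered 5 with DESeq2, 2 with limma-voom, 3 with RLE size factors, 2 without a filter on low counts and 3 with at least 10 counts in every library. Of all genes these settings called 7.5%, 3.82%, 3.19%, 2.58% and 3.55%. In RNA3 it was 1 partner under the same stricter filter, with RLE size factors and with DESeq2, and 6.25%, 3.19% and 4.28% of all genes. In the joint fit 0 members were called with the background as a covariate, for the common effect and for the difference between experiments.

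No label says that a replicate number marks a shared week, so same-numbered libraries of the 2 lines share only a number. Their deviations correlated at -0.185 to 0.118. With the replicate block the members called were 3 in RNA1, 0 in RNA2 and RNA3 and 1 in each joint test, and the partners 16, 0 and 2. Of all genes 31.5%, 2.06% and 5.16% were called with the block in RNA1, RNA2 and RNA3. In the joint tests it was 10.5% for the common effect and 0.844% for the difference between experiments.

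Leaving out 1 library gave 3 to 4 members in RNA1, 0 in RNA2 and RNA3 and 0 to 1 in each joint test, and 15 to 22, 0 to 4 and 0 to 2 partners. Over these fits the share of all genes called ran from 26.2% to 46.3% in RNA1, and the fit with 46.3% gave the 4 members and 22 partners. That share ran from 0.0133% to 3.44% in RNA2 and from 1% to 7.09% in RNA3. Log2FC that changed sign ranged from -0.019 to 0.065 for SCN8A in RNA1, from -0.15 to 0.083 for SCN2A and -0.24 to 0.064 for SCN7A in RNA2, and in RNA3 from -0.24 to 0.084 for SCN3A, -0.23 to 0.15 for SCN4A, -0.037 to 0.077 for SCN7A and -0.056 to 0.11 for SCN8A. Without changing sign, SCN10A in RNA2 ranged from -1.08 (without ABCC1 replicate 3) to -0.43 (without ABCC1 replicate 1), SCN1A from -0.77 to -0.16 and SCN4A from -0.78 to -0.29 (without ABCC1 replicate 2 and 1), and SCN11A in RNA1 from 0.097 (without Puro replicate 1) to 0.67 (without Puro replicate 3). SCN2A in RNA1 ranged from -0.22 to -0.057 (without ABCC1 replicate 2 and 3) and SCN3A from 0.12 to 0.22 (without Puro replicate 1 and 3). SCN8A in RNA2 ranged from 0.038 to 0.42 (without Puro replicate 3 and 2), SCN11A from -0.49 to -0.070 (without ABCC1 replicate 3 and 1) and SCN3A from 0.19 to 0.52 (without ABCC1 replicate 3 and 1). In RNA3 SCN1A ranged from -0.51 to -0.079 and SCN9A from -0.165 to -0.046 (without ABCC1 replicate 1 or 2), and SCN2A from -0.51 to -0.013. In the joint fit SCN9A ranged from -0.084 to 0.029 and SCN11A from -0.15 to 0.015.

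With the background as a covariate the sign turned in RNA2 for SCN1A (0.34), SCN2A (0.15), SCN4A (0.20), SCN8A (-0.069), SCN10A (0.13) and SCN11A (0.25). In RNA3 it turned for SCN1A, SCN3A and SCN4A (0.46 each), SCN7A (0.052) and SCN10A (0.16), and in the joint fit for SCN4A (0.22), SCN10A (0.15) and SCN11A (0.23). SCN2A in RNA2 turned to 0.041 with DESeq2 or RLE size factors. In RNA3 SCN7A and SCN8A turned to 0.058 and 0.062 with DESeq2 or RLE size factors, 0.0084 and 0.011 without a filter, 0.027 and 0.028 with at least 10 counts and 0.077 and 0.083 with the shared spread, where SCN4A turned to 0.0077. SCN1A, SCN4A, SCN10A and SCN11A were within 2.53 times the background in every RNA2 and RNA3 library, which limits what can be measured of them there. The same limit holds in RNA3 for SCN2A, SCN3A and SCN7A, at most 1.27, 1.72 and 1.48 times the background.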
